A study of Mus musculus with 2 samples.

Results

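RNA for the adult globin chains, for proteins of the red cell membrane and for the carbonic anhydrases of red cells was examined in sorted mouse marrow cells labelled as long-term haematopoietic stem cells, the cells that sustain blood formation. The genes were taken by name: the alpha globin genes Hba-a1 and Hba-a2, the beta globin genes Hbb-bs and Hbb-bt, Slc4a1, Rhag, Car1 and Car2. Of 9 genes named, 8 were matched by symbol, out of 17216 genes in the series, and the remaining gene is not reported here. All 8 were listed in both libraries and averaged 1 FPKM or more (fragments per kilobase of transcript, scaled for library depth). The names were proposed with values of this comparison known, so the values below are descriptions.

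There was 1 library from C57BL/6 wild type mice and 1 from Ccp3-/- littermates, which lack the cytosolic carboxypeptidase CCP3. Per the labels, both sorts took lineage-negative cells positive for CD150, c-Kit and Sca-1 and negative for CD48. The labels give no number of pooled animals, no age, no sex and no description of the deleted part. With 1 library per genotype there was no replicate error and no test, and each difference is between 2 libraries. Agbl3, which encodes CCP3, had 1.11 FPKM in the wild type library against 0.66 FPKM in the Ccp3-/- one, from about 23 and 15 reads. The ratio of these, knockout over wild type, was 0.595 (95% counting interval 0.289 to 1.19), so it does not check the genotype, and the second library is called the knockout-labelled library. The depth implied by the spacing of low FPKM values was about 15.4 M and 14.2 M reads. Intervals rest on reads estimated from that spacing and cover counting error only.

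Haemoglobin, the oxygen carrier of red cells, is built from alpha and beta globin chains with a heme group in each. The globin genes lie in an alpha cluster and a beta cluster, are switched on strongly as erythroid precursors mature, and are controlled by GATA1, KLF1 and distant enhancers. Band 3, the anion exchanger encoded by Slc4a1, carries bicarbonate across the red cell membrane and anchors the membrane skeleton. Rhag encodes the Rh-associated glycoprotein, a membrane channel partner of the Rh proteins. Car1 and Car2 encode cytosolic carbonic anhydrases, which interconvert carbon dioxide and bicarbonate. Stem cells are not known for making haemoglobin, and globin RNA is a usual sign of erythroid cells in a marrow sample.

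The copies of each globin chain are nearly the same in sequence, which bears on how reads were divided between them. In GENCODE transcripts of the mouse build GRCm38, the coding sequences of Hba-a1 and Hba-a2, 429 bases each, differed at 1 base (identity 99.8%), with 380 identical bases in a row. The substitution was C381T, counted from 1 at the first base of the start codon, with Hba-a1 first. The coding sequences of Hbb-bs and Hbb-bt, 444 bases each, also differed at 1 base (identity 99.8%), C417T with Hbb-bs first. Both substitutions fell at place 3 of a codon. The coding stretches around these bases are printed because they are the only coding positions at which a read can tell the copies apart, and the differing base is in capitals.
Hba-a1: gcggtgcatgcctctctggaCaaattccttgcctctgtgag
Hba-a2: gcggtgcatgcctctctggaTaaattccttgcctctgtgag
Hbb-bs: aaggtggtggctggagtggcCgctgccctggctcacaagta
Hbb-bt: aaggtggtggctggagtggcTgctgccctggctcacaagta
By contrast, Hba-a1 and Hbb-bs shared 57.8% of aligned coding positions. Values of single copies are therefore uncertain, and the sums of the alpha copies and of the beta copies are the values compared.

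Both globin sums were several-fold lower in the knockout-labelled library. Alpha globin, summed over its copies, had 862 FPKM in the wild type library against 181 FPKM in the knockout-labelled one, from about 7027 and 1376 reads. The wild type sum exceeded the knockout-labelled one 4.76-fold (95% counting interval 4.49 to 5.04). Beta globin, summed over its copies, had 501 FPKM in the wild type library against 126 FPKM in the knockout-labelled one, from about 4618 and 1081 reads. The wild type sum exceeded the knockout-labelled one 3.97-fold (3.72 to 4.25). Fewer cells that hold globin RNA and less globin RNA per cell cannot be told apart in these bulk samples.

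Each of the 4 globin copies was lower in the knockout-labelled library, by unequal amounts. Hba-a1 (Entrez gene 15122) stood at 764 and 155 FPKM in the wild type and knockout-labelled libraries, a 4.92-fold difference. Hba-a2 (110257) stood at 97.7 and 25.8 FPKM, a 3.79-fold difference. The major beta copy Hbb-bs (100503605) stood at 457 and 107 FPKM, a 4.25-fold difference. The minor copy Hbb-bt (101488143) was at 44.8 and 18.8 FPKM, a 2.39-fold difference (1.99 to 2.88). Within the wild type library Hbb-bs exceeded Hbb-bt 10.2-fold (9.21 to 11.3), and within the knockout-labelled library 5.72-fold (4.84 to 6.81). Hba-a1 exceeded Hba-a2 7.82-fold (7.27 to 8.42) and 6.02-fold (5.18 to 7.03). In the deposited values the more abundant copy of each chain had the larger difference. Within each pair, however, the coding sequences differ at 1 base and the untranslated parts were not compared. Intervals for single copies take the reads as divided between the copies and leave out the error of that division.

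Alpha and beta globin RNA were not in the same proportion in the 2 libraries. On the FPKM scale, which is per length, the alpha sum was 1.72 times the beta sum in the wild type library (1.66 to 1.78). It was 1.44 times the beta sum in the knockout-labelled library (1.33 to 1.56). The counting intervals of these ratios do not overlap, but library to library spread is unknown. In both libraries alpha RNA was above beta RNA.

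**Figure D1:**
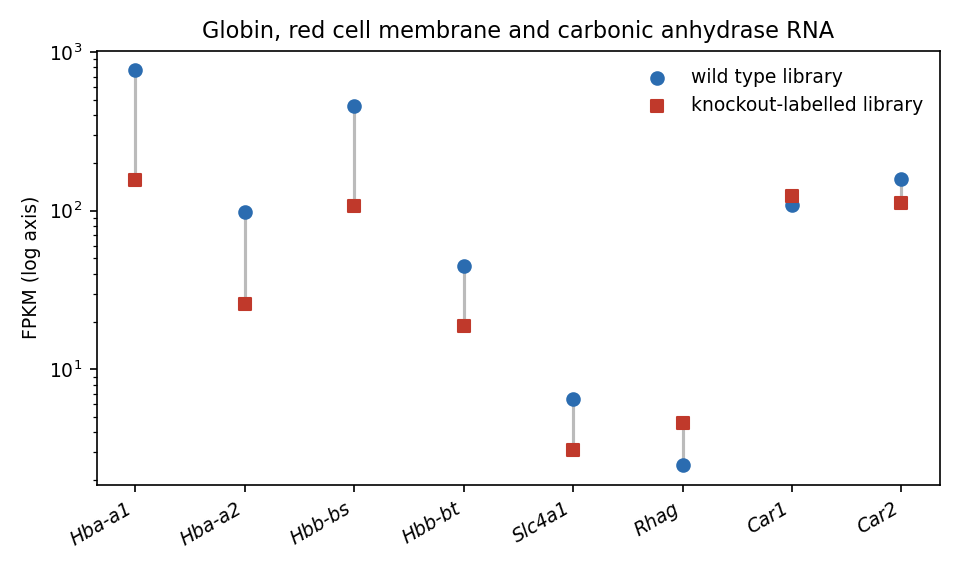
FPKM (log axis) of each matched gene in the wild type library (circles) and the knockout-labelled library (squares), joined by a line, with 1 library each and no error bar. The 4 globin genes, Slc4a1 and Car2 are lower in the knockout-labelled library, while Rhag and Car1 are higher.

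Among abundant genes Hba-a1 and Hbb-bs stood at the lower edge. Of 11985 genes averaging 1 FPKM or more, 186 (1.55%) were lower by 2-fold or more on the log2(FPKM + 1) scale, and 145 (1.21%) higher. With both libraries scaled to the same FPKM sum, 139 were lower and 247 higher. The 4 globin genes were among those 186, and the other 4 matched genes were not. Because the genes were chosen on this contrast, nothing is read from the comparison of their count with 1.55%, nor from their place among abundant genes. The differences on that scale were −2.29 for Hba-a1, −2.08 for Hbb-bs, −1.88 for Hba-a2 and −1.21 for Hbb-bt. Of 735 genes averaging 100 FPKM or more, 6 (0.816%) were lower by that much, and Hba-a1 and Hbb-bs had the largest negative differences of these. In abundance order, Hba-a1 was number 109 in the wild type library and number 415 in the knockout-labelled library. Hbb-bs was number 151 and number 666. The 4 globin genes together held 0.236% of the FPKM sum in the wild type library against 0.0607% in the knockout-labelled one.

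**Figure D2:**
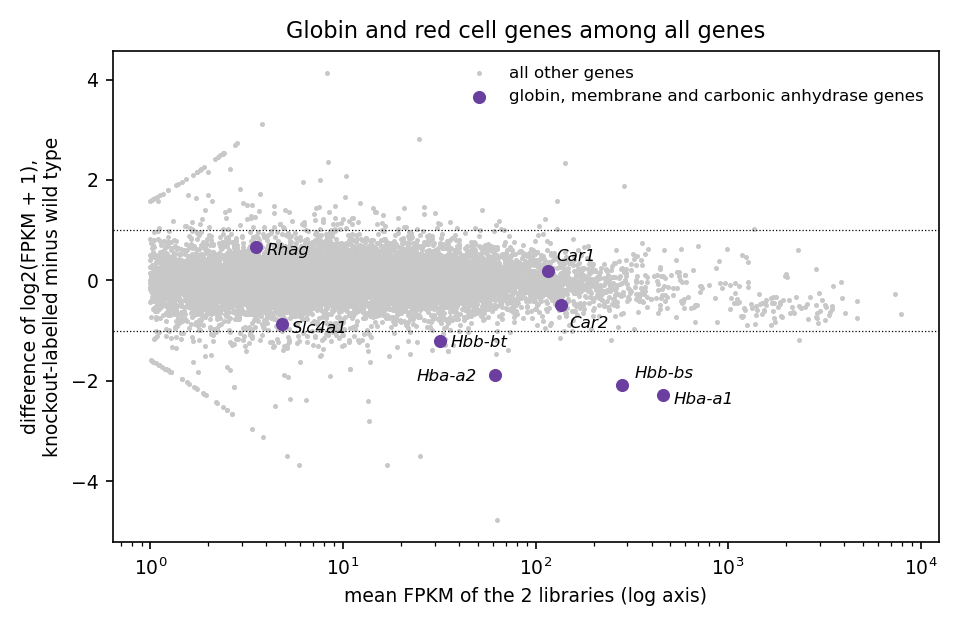
Difference of log2(FPKM + 1), knockout-labelled minus wild type, against the mean FPKM (log axis) for genes averaging 1 FPKM or more (grey) and the 8 matched genes (purple), with dotted lines at 2-fold. Hba-a1 and Hbb-bs lie below all other genes of at least 100 FPKM, while Car1 and Car2 lie within the dotted lines.

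Globin transcripts are short, and short transcripts were lower in the knockout-labelled library in general. Across 8817 genes averaging 5 FPKM or more, the Spearman correlation of the difference with transcript length was 0.50, a description across genes, which are not replicates. The 200 genes nearest in length to Hba-a1 (569 bases) had a median difference of −0.33 on the log2(FPKM + 1) scale, and those nearest to Hbb-bs (639 bases) one of −0.31. Subtracting these medians left differences of −1.96 for Hba-a1 and −1.77 for Hbb-bs. For Hbb-bt the difference became −0.91, under 2-fold.

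The remaining globin genes were near or below detection in both libraries. Of 13 further globin genes looked for, 4 were listed in either library and 0 reached a mean of 1 FPKM. The embryonic genes Hba-x, Hbb-y and Hbb-bh1 were not listed in either library. The theta-like genes Hbq1b and Hbq1a were each listed in 1 library, Hbq1b at 0.37 FPKM (wild type, about 4 reads) and Hbq1a at 0.25 FPKM (knockout-labelled, about 2 reads). Hbb-b1, a beta globin gene of another mouse haplotype, had 0.52 FPKM in the wild type library and was not listed in the other. Cygb, which encodes the widely expressed cytoglobin, stood at 0.06 and 0.12 FPKM. Also not listed were Hbb-bh0, Hbb-bh2, Hbb-bh3, Hbb-b2, the myoglobin gene Mb and the neuroglobin gene Ngb. The globin RNA counted was therefore almost entirely adult alpha and beta.

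The proximal promoters of the globin genes and of Rhag are shown as a description of sequence. A link of their letters to the differences between the libraries was not tested. RefSeq promoter sequences of GRCm38.p6 were matched for 5 of the 8 genes (Hba-a1, Hba-a2, Hbb-bs, Hbb-bt and Rhag), and the 250 bases before each annotated start were searched on both strands. Motif matches are in capitals and can overlap or adjoin. The letters AGATAA and the shorter core GATAA within them are bound by GATA factors, and CCACCC is a box bound by KLF1 and related factors. A longer form with the letters CCACACCC, known from adult beta globin promoters and also bound by KLF1, was searched too. The other motifs were the CAAT box with the letters CCAAT, the TATA letters TATAAA and an E-box with the letters CACCTG. A variant of the TATA element was searched with the letters ATATAA. The shorter GATA core, the longer KLF1 form and the TATA variant were added after the sequences were seen.
Hba-a1, chr11:32283422-32283671, plus strand: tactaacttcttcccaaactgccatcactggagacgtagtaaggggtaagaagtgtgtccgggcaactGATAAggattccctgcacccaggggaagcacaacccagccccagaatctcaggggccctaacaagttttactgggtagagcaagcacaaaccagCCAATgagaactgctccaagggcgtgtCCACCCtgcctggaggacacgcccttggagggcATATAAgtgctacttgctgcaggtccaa
Hbb-bs, chr7:103827929-103828178, minus strand: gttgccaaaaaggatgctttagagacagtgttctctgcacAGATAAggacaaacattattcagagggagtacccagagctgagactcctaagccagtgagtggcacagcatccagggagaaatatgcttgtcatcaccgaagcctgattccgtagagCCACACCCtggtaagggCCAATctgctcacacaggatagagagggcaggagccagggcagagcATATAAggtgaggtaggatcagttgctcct
Hbb-bt, chr7:103813924-103814173, minus strand: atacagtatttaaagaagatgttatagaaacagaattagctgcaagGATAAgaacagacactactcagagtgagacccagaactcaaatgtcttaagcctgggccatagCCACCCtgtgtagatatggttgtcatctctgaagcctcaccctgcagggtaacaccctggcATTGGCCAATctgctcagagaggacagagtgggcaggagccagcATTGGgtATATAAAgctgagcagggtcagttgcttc
Rhag, chr17:40810899-40811148, plus strand: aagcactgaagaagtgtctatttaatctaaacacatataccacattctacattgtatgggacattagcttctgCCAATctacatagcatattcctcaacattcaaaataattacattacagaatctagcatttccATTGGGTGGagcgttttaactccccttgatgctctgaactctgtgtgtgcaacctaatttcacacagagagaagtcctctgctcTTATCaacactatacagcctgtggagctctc
The Hba-a2 promoter shares a run of 247 bases with that of Hba-a1 and is not printed. The longest run shared by the Hbb-bs and Hbb-bt promoters was 14 bases.

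The CAAT box was found in all 5 promoters, as it was in 33.8% of the 32851 promoters in the table. The shorter GATA core was also in all 5 (22.6% of all promoters). This core, the longer KLF1 form and the TATA variant were added after these sequences were seen. Nothing is therefore read from their counts beside the shares of all promoters. The Hba-a1 and Hba-a2 promoters are nearly the same, so their matches are not separate finds. The letters of the shorter KLF1 box were found in 4 of 5, against 28.1%, and the fifth, Hbb-bs, held the longer KLF1 form (3.20% of all promoters) 93 to 86 bases before its start. The longer GATA motif was found in the Hbb-bs promoter alone (9.99% of all promoters) and the E-box letters in 0 of 5 (17.2%). The TATA variant was found in all 4 globin promoters (9.10% of all promoters), 28 to 23 bases before the start in Hba-a1 and 30 to 25 bases before in Hbb-bs. In Hbb-bt it overlapped the first TATA motif, whose letters were in no other of the 5 (12.4%). In Hba-a1 the KLF1 box lay 61 to 56 bases before the start, the CAAT box 88 to 84 bases before and the GATA core 182 to 178 bases before. In Rhag the GATA core was on the reverse strand, 31 to 27 bases before the start. Rhag held the shorter KLF1 box, the CAAT box and the GATA core, as Hba-a1 did, but the letters of neither TATA motif. A match describes letters, not binding, and a missing match says only that these letters are not in the window.

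The membrane protein genes differed in opposite directions, at low levels. Slc4a1 (20533) had 6.54 FPKM in the wild type library against 3.10 FPKM in the knockout-labelled one, from about 458 and 200 reads. The ratio, knockout over wild type, was 0.474 (95% counting interval 0.399 to 0.561). Rhag (19743) had 2.50 FPKM in the wild type library against 4.58 FPKM in the knockout-labelled one, from about 88 and 148 reads, a ratio of 1.83 (1.40 to 2.41). On the FPKM scale Slc4a1 was 2.62 times Rhag in the wild type library (2.08 to 3.33) and 0.677 times Rhag in the knockout-labelled library (0.545 to 0.843). The order of band 3 and Rh-associated glycoprotein RNA was thus opposite in the 2 libraries. Both transcripts are longer than globin RNA (4584 and 2316 bases), and centring on genes of similar length gave −1.04 for Slc4a1 and 0.71 for Rhag on the log2(FPKM + 1) scale.

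Relatives of these transporters differed less. Of 12 genes for band 3 and Rh relatives, themselves included, 6 averaged 1 FPKM or more. Here and for the lists that follow, counts past 1.5-fold are on the log2(FPKM + 1) scale, which shrinks differences of low genes, unless the ratio of FPKM is named. On that scale Slc4a1 was lower by 1.5-fold or more, Rhag higher and the other 4 within 1.5-fold. Over all genes averaging 1 FPKM or more, 6.13% were lower by 1.5-fold or more and 6.11% higher. By the ratio of FPKM itself, a rule added after the values were seen, 8.73% were lower and 8.67% higher, and of these 6 genes 1 was lower and 2 were higher, Rhag and Slc4a8. The ubiquitous anion exchanger gene Slc4a2 stood at 10.8 and 12.3 FPKM, the bicarbonate cotransporter gene Slc4a7 at 5.14 and 6.28 FPKM, and Slc4a8 at 1.47 and 2.26 FPKM, a ratio of 1.54 (1.31 to 1.81). Rhd, which encodes the red cell Rh polypeptide, stood at 3.19 and 2.22 FPKM, a ratio of 0.696 (0.472 to 1.02).

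The carbonic anhydrase genes Car1 and Car2 were abundant in both libraries and differed by less than the globins. Car1 (12346) had 109 FPKM in the wild type library against 124 FPKM in the knockout-labelled one, with a ratio of 1.13 (95% counting interval 1.07 to 1.21). Car2 (12349) had 158 FPKM in the wild type library against 112 FPKM in the knockout-labelled one, with a ratio of 0.712 (0.679 to 0.747). Car1 RNA was 0.693 times Car2 RNA in the wild type library (0.656 to 0.731) and 1.10 times Car2 RNA in the knockout-labelled library (1.04 to 1.17). Alpha globin was 7.90 times Car1 in the wild type library but 1.46 times Car1 in the knockout-labelled library.

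Of 16 carbonic anhydrase genes, 14 were listed in either library and 7 averaged 1 FPKM or more, of which 1 was lower by 1.5-fold or more and 0 higher on the log2(FPKM + 1) scale. By the ratio of FPKM, 1 was lower and 1 higher. Over all genes 6.13% were lower and 6.11% higher on the log2 scale, and 8.73% and 8.67% by the ratio. Counts in 7 genes cannot be told from these shares. The lower gene was Car9, which encodes a hypoxia-induced membrane enzyme, at 5.20 and 3.06 FPKM. Car3 stood at 3.22 and 3.24 FPKM, Car13 at 2.48 and 2.30 FPKM and Car5b at 1.73 and 2.19 FPKM. Car12, the gene higher by the ratio of FPKM, stood at 1.72 and 2.85 FPKM, a ratio of 1.66 (1.27 to 2.16). Below the minimum were Car5a (1.45 and 0.54 FPKM), Car14 (0.78 and 0.97 FPKM), Car15 (0.18 and 0.52 FPKM), Car7 (0.22 in both), and Car8, Car10 and Car11, none above 0.07 FPKM. Car4 and Car6 were not listed.

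**Figure D3:**
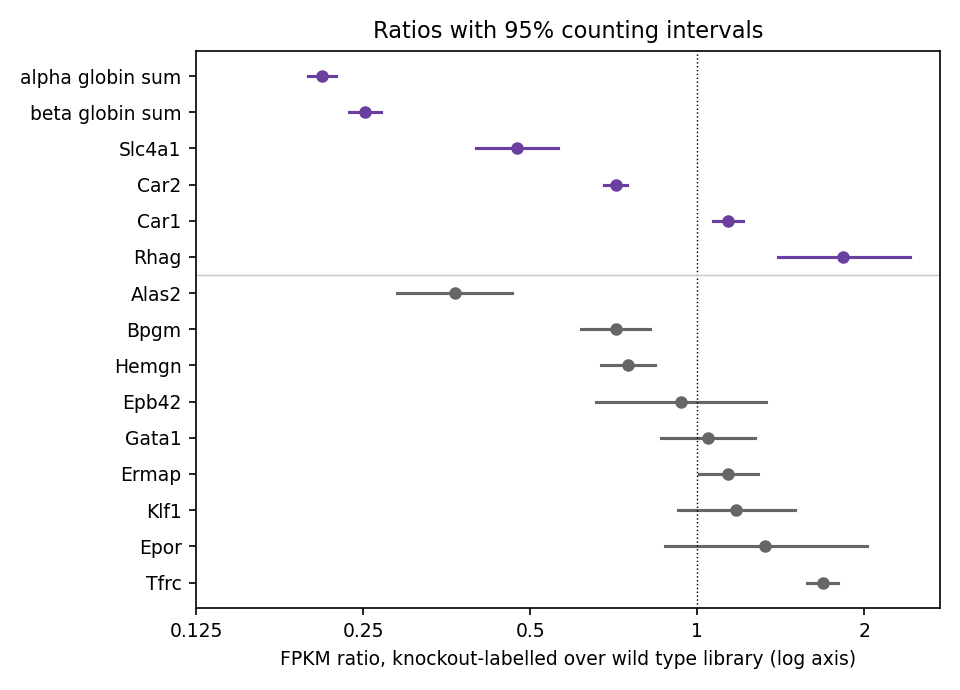
FPKM ratio of the knockout-labelled over the wild type library (log axis, dotted line at 1) with 95% counting intervals for the globin sums and single genes (purple) and for 9 other erythroid marker genes (grey). The globin sums lie near 0.21 and 0.25 and Alas2 at 0.366, while Klf1, Gata1 and Epor have intervals that include 1.

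Few other erythroid markers passed 1.5-fold in either direction. Of 18 erythroid markers, 17 were matched, and 6 of these were lower by 1.5-fold or more and 2 higher. These counts include the genes described above, which were chosen on this contrast. Without those genes, 9 markers remained, of which 1 was lower and 1 higher. In so few genes this cannot be told from the 6.13% lower and 6.11% higher over all genes. The median difference of the 9 markers was 0.06 on the log2(FPKM + 1) scale against 0.01 over all genes. Their summed level was 91.6 FPKM in the wild type library against 92.4 FPKM in the knockout-labelled one, and without Tfrc 71.0 against 57.7 FPKM. The lower marker was Alas2, the erythroid enzyme of the first step of heme synthesis, at 9.48 and 3.47 FPKM, a ratio of 0.366 (0.287 to 0.463). The higher marker was the transferrin receptor gene Tfrc, at 20.6 and 34.7 FPKM, a ratio of 1.68 (1.58 to 1.79). The erythroid transcription factor genes Klf1 (5.76 and 6.77 FPKM) and Gata1 (7.50 and 7.85 FPKM) and the erythropoietin receptor gene Epor (1.60 and 2.12 FPKM) had counting intervals that included a ratio of 1. So did the skeleton gene Epb42 (1.22 and 1.14 FPKM). Within 1.5-fold, but with intervals below 1, were Hemgn, a nuclear protein gene of blood progenitors, with a ratio of 0.750 (0.671 to 0.838), and Bpgm, which encodes bisphosphoglycerate mutase, with one of 0.712 (0.616 to 0.822).

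Among 24 other red cell membrane and skeleton genes, 0 were lower by 1.5-fold or more, 1 was higher and 23 were within 1.5-fold on the log2(FPKM + 1) scale, and the median difference was 0.05. By the ratio of FPKM, 0 were lower and 2 higher. The higher gene was Xk, a membrane transporter gene at 3.17 and 5.89 FPKM. Stom, which encodes stomatin, stood at 34.0 and 48.6 FPKM, and the beta adducin gene Add2 at 2.75 and 4.32 FPKM, a ratio of 1.57 (1.30 to 1.89). The abundant surface protein genes Bsg (211 and 220 FPKM) and Cd47 (75.7 and 106 FPKM), which other blood cells also express, were within 1.5-fold. Against the 6.13% lower and 6.11% higher over all genes on the log2 scale, these counts are near the background.

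Of 19 late erythroid and reticulocyte genes, 2 were lower by 1.5-fold or more, 2 higher, and the median difference was −0.18. The lower genes, Ube2l6 (29.3 and 16.8 FPKM) and Isg20 (21.2 and 12.7 FPKM), are also induced by interferon. Tent5c, a poly(A) polymerase gene (1.23 and 3.52 FPKM), and Trim58, a ubiquitin ligase gene of late erythroblasts (1.76 and 3.72 FPKM), were higher. The peroxidase gene Prdx2 (120 and 80.5 FPKM) and the catalase gene Cat (41.9 and 36.3 FPKM) were within 1.5-fold. Counts this small cannot be told from the 6.13% lower and 6.11% higher over all genes.

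Of 8 heme synthesis genes, Alas2 was at least 1.5-fold lower and 7 were within 1.5-fold on the log2(FPKM + 1) scale, with a median of −0.23. By the ratio of FPKM, 2 were lower, Alas2 and Alad, which had a ratio of 0.633 (0.557 to 0.720). Over all genes 6.13% were lower on the log2 scale and 8.73% by the ratio. Counts in 8 genes cannot be told from these shares. Alas1, the housekeeping counterpart of Alas2, stood at 64.9 and 83.4 FPKM. Later enzymes were Alad (9.41 and 5.96 FPKM), Uros (7.41 and 5.86 FPKM), Urod (32.8 and 29.3 FPKM), Cpox (11.99 and 17.4 FPKM), Ppox (16.5 and 11.95 FPKM) and Fech (13.2 and 15.7 FPKM).

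Of 20 early erythroid progenitor genes, 2 were lower by 1.5-fold or more, 2 higher, and the median difference was 0.02. In 20 genes these counts cannot be told from the 6.13% lower and 6.11% higher over all genes. Lower were Cnrip1 (7.46 and 2.25 FPKM), a ratio of 0.302 (0.215 to 0.416), and the repressor gene Gfi1b (15.7 and 9.72 FPKM). Higher were Tfrc and the metallothionein gene Mt1 (25.2 and 40.1 FPKM). The transcription factor genes Lmo2 (239 and 187 FPKM) and Nfe2 (118 and 106 FPKM), also used by stem cells and megakaryocytes, were within 1.5-fold.

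Of 12 genes listed around globin regulation, 1 was higher by 1.5-fold or more, 0 lower, and the median difference was 0.14. Over all genes 6.13% were lower and 6.11% higher, from which counts in 12 genes cannot be told. A place in the list does not mean that a gene itself regulates globin genes. The higher gene was Zbtb7a, which encodes a repressor of fetal globin genes, at 19.8 and 32.3 FPKM, a ratio of 1.64 (1.54 to 1.74). Bcl11a, which encodes another such repressor, stood at 54.4 and 43.4 FPKM. Myb stood at 141 and 202 FPKM, the chromatin remodeller gene Atrx at 33.8 and 47.3 FPKM, Hbs1l at 27.2 and 35.6 FPKM and the chaperone gene Hspa8 at 1964 and 2065 FPKM. Nprl3, a gene beside the alpha cluster whose introns hold its enhancers, stood at 7.75 and 6.74 FPKM.

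**Figure D4:**
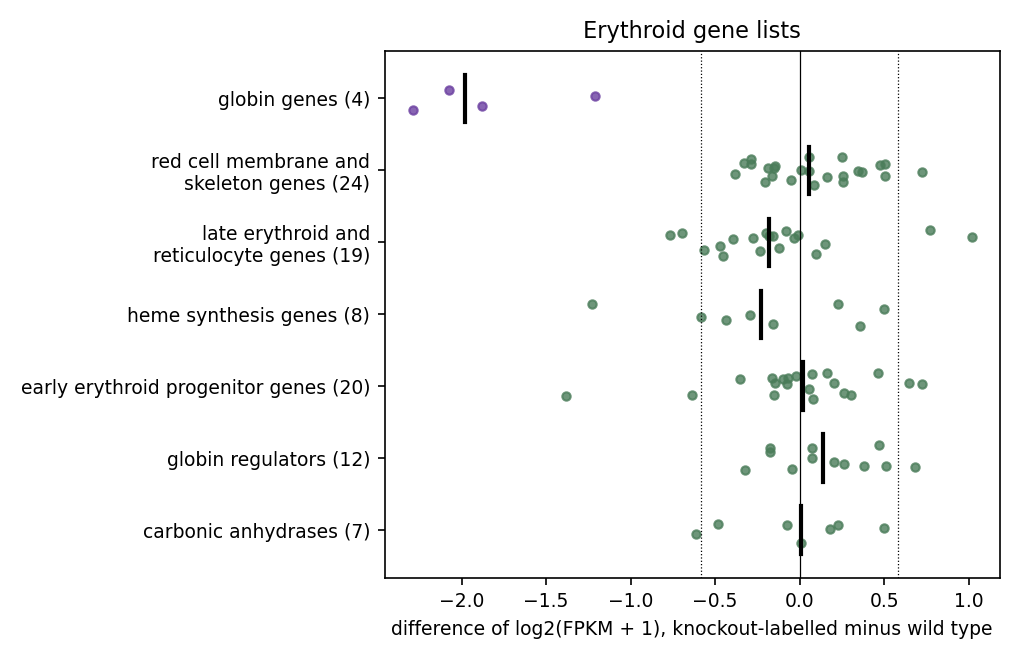
Difference of log2(FPKM + 1), knockout-labelled minus wild type, for each gene averaging 1 FPKM or more in the globin set and 6 related lists, with the number of genes in brackets, a black bar at the median and dotted lines at 1.5-fold. All 4 globin genes lie at or below −1.21, while the medians of the related lists lie between −0.23 and 0.14.

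Immediate neighbours of the globin genes were other globin genes or were not listed. Values for neighbours outside the globin clusters are thus for those of Slc4a1, Rhag, Car1 and Car2 only. Beside Slc4a1 in annotation order, Ubtf stood at 64.4 and 84.8 FPKM and Rundc3a at 1.88 and 2.06 FPKM. Beside Rhag, 9130008F23Rik stood at 2.56 and 2.22 FPKM and Crisp2 at 0.41 and 0.50 FPKM. Car3 lies between Car1 and Car2, and Gm9733, which follows Car2, stood at 4.16 and 5.69 FPKM. The beta cluster adjoins the olfactory receptor gene Olfr67, which was not listed.

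The libraries also differed in markers of other cells, and the part of these in the globin difference was not tested. Over all genes averaging 1 FPKM or more, 6.13% were lower by 1.5-fold or more and 6.11% higher on the log2(FPKM + 1) scale. By the ratio of FPKM these shares were 8.73% and 8.67%. Cd48, whose protein the gate excluded, stood at 136 and 114 FPKM, against 2.14 and 3.40 FPKM for Slamf1, which encodes CD150. Stem and progenitor markers were lower in 5 of 17 by at least 1.5-fold on the log2(FPKM + 1) scale, with summed levels of 821 and 579 FPKM, and none was absent. Without Cd48 and Flt3, which mark later progenitors, 4 of 15 were lower and the sums were 530 and 383 FPKM. Neutrophil markers were higher in 11 of 19 (sums 8785 and 12254 FPKM), with Stfa1 not listed in the wild type library. B cell markers were lower in 10 of 13 (162 and 73.3 FPKM), and dendritic cell markers in 10 of 13 (583 and 338 FPKM). Megakaryocyte and platelet markers were lower in 4 and higher in 1 of 13 (153 and 134 FPKM), with Gp6 not listed. Macrophage markers, which would mark erythroblastic islands, were higher in 1 and lower in 0 of 12 (54.1 and 54.9 FPKM), or higher in 3 and lower in 3 by the ratio of FPKM, with Marco not listed. Mast cell, basophil and eosinophil markers were higher in 1 and lower in 1 of 10 (427 and 413 FPKM). Xist stood at 5.38 and 44.2 FPKM, and the Y-linked Eif2s3y at 44.6 and 11.5 FPKM. The Y-linked genes Ddx3y (13.8 and 5.93 FPKM), Kdm5d (6.66 and 2.10 FPKM) and Uty (3.73 and 1.89 FPKM) were also lower. Xist and Y-linked RNA were thus present in both libraries, in unlike proportions. The part of animal sex, which the labels do not give, was not tested and cannot be told apart from genotype in these libraries.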

How the data were processed

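RNA of sorted cells was sequenced in 1 wild type and 1 Ccp3-/- library. Values of FPKM and transcript lengths per Entrez gene were made by the authors and are used as deposited. The submitters' processing notes name HISAT, HISAT2, RSEM and build mm9, without versions or settings. Of 17216 genes, 17169 had a symbol in RefSeq GRCm38.p6. Since builds differ, coordinates are given only for RefSeq promoters.

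A gene missing from a file was taken as 0. The difference was log2(FPKM + 1), knockout-labelled minus wild type, which understates changes of low genes, and ratios are of FPKM without the pseudocount. Lists were counted over genes averaging 1 FPKM or more and described at 1.5-fold on that scale. Some genes of the erythroid lists are not reported here and enter none of their counts, medians or sums. Named genes were the matched genes, up to 4 per list by difference and 2 by abundance, the members of small counts, all listed globin, carbonic anhydrase and heme genes, and neighbours. Genes named outside that rule were chosen after their values were seen.

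Reads were estimated from the step between low values (64.9 and 70.4 FPKM times bases, after offsets of 42 and 37 bases). Whole reads, to within 0.15, were given by 86.4% of 603 and 88.6% of 577 values, the same values that set the step. Exact conditional 95% intervals used rounded reads. On simulated data for 17216 genes in 2 libraries, the steps set (61 and 73) were found, and 95.5% of 2000 such intervals held the true ratio. Those intervals were for unchanged genes averaging 5 FPKM or more, with reads drawn independently for each gene. The simulation thus does not check intervals for changed genes, lower genes or copies that share reads. Alternatives covered pseudocount, scaling, filter and length. The genes and lists were chosen with earlier results of these data known. Scripts ran in Python 3.11.15 with scipy 1.17.1, pandas 2.3.3, numpy 2.4.6 and, for figures, matplotlib 3.10.9.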

Additional observations from a re-analysis of the deposited data

How the results depend on the processing

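No paired analysis was possible because each genotype had 1 library, and for the same reason no library could be left out. Both globin sums, Slc4a1, Rhag, Car1 and Car2 kept their direction under the 7 settings run for them, no pseudocount among them, which was added after seeing the data. The 4 globin copies were set beside the sums only as deposited, and of 46 such values 12 moved beyond the counting interval. With equal FPKM sums, which took the all-gene median from 0.01 to 0.18, the log2 differences were −2.05 for alpha globin, −1.79 for beta globin, 0.37 for Car1 and −0.30 for Car2. Centred on genes of similar length they were −1.92, −1.68, 0.37 and −0.40. With a pseudocount of 5, Slc4a1 had −0.51. As single copies, Hba-a2 had −1.88, Hbb-bs −2.08 and Hbb-bt −1.21. Genes at least 2-fold lower and higher (186 and 145) numbered 334 and 295 with no pseudocount, 317 and 272 with a pseudocount of 0.1, 44 and 31 with a pseudocount of 5, 88 and 70 at a mean filter of 5 FPKM, and 139 and 247 with equal sums. The members' share of the FPKM sum (0.284% wild type, 0.109% knockout-labelled) was 0.414% and 0.144% without 84 ribosomal protein genes. The cause of these changes was not tested.

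List counts are small, and 39 of 189 list values moved. Membrane and skeleton genes had 2 higher with a pseudocount of 0.1 or none, 4 higher and a median of 0.24 with equal sums, and 0 higher with a pseudocount of 5 or a mean filter of 5 FPKM. Late erythroid genes had 1 lower and 0 higher with a pseudocount of 5, 1 lower with equal sums or length centring, and 0 higher at 5 FPKM. Heme synthesis genes had 2 lower with a pseudocount of 0.1 or none, upper-quartile scaling, TMM factors or length centring, and 1 higher with equal sums. Early erythroid genes had 1 lower and 1 higher with a pseudocount of 5, and 1 lower with equal sums, length centring or a mean filter of 5 FPKM. The list around globin regulation had a median of 0.32 and 3 higher with equal sums, and 0 higher after length centring. Carbonic anhydrases had 1 higher with a pseudocount of 0.1, with none or with equal sums, 0 lower with a pseudocount of 5, equal sums, length centring or a mean filter of 5 FPKM, and 2 lower with no filter. Transporter relatives had 2 higher with a pseudocount of 0.1 or none, and 0 lower and 0 higher with a pseudocount of 5 or a mean filter of 5 FPKM. Medians near 0 changed sign under some settings. The further globin genes gave no value, since none reached the filter.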

Other observations

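The globins were chosen on this contrast, so nothing is read from their place among other genes. Among 8814 genes averaging 5 FPKM or more listed in both libraries, 8 genes other than the globins had a knockout to wild type ratio at or below that of the alpha globin sum (0.210). The genes with the ratio most like it, over 2 libraries only, were Mir3060 (14.1 and 3.03 FPKM, about 9 and 2 reads), Mir1894 (8.81 and 1.58 FPKM, about 5 and 1 reads), Cox6a2, a cytochrome oxidase subunit gene (9.58 and 2.41 FPKM), and the near-identical 7SL RNA genes Rn7s1 and Rn7s2 (17.3 and 4.42 FPKM each). The microRNA genes rest on so few reads that their ratios have counting intervals which include 1.

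Besides Hba-a1 and Hbb-bs, the other genes averaging 100 FPKM or more that were lower by 2-fold or more were the class I light chain gene B2m (3244 and 1421 FPKM), the lymphoid polymerase gene Dntt (341 and 149 FPKM), the immediate early gene Egr1 (186 and 83.0 FPKM) and Tmem176b (187 and 92.2 FPKM), named here after their values were seen.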
